A study of Mus musculus with 4 samples.

Results

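Arginine is shared by competing enzymes in macrophages, and 10 genes of that competition were followed through activation and treatment with a Ninj1 peptide. They were chosen by symbol, with earlier results of these data known: Slc7a2, Nos2, Gch1, Ass1, Asl, Arg1, Arg2, Odc1, Srm and Sat1. Each symbol matched 1 row on a primary chromosome, so the set holds 10 of the 32617 genes in the count table, and all 10 were among the 14104 genes that passed the filter on low counts. Nos2 and Arg1 passed through the activated libraries, since their M-CSF counts were 3 and 5.

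Nitric oxide synthase turns arginine into nitric oxide and citrulline, and it needs the cofactor tetrahydrobiopterin. Argininosuccinate synthetase and lyase rebuild arginine from citrulline. Arginase instead splits arginine into urea and ornithine, and ornithine decarboxylase opens the path from ornithine to the polyamines putrescine, spermidine and spermine. In mouse macrophages, inducible nitric oxide synthase is a textbook marker of classical activation and arginase 1 of alternative activation.

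Macrophages were grown from CD11b-selected blood monocytes of C57BL/6J mice aged 10 to 16 weeks, with blood from 60 mice pooled as needed and cultures kept 6 or 7 days in 30 ng/ml M-CSF, a macrophage growth factor that all groups received. Peptide-treated CAM (2 libraries, called peptide library 1 and 2) were activated like CAM and given mML56, which spans residues 1 to 56 of the membrane protein Ninj1 and stands in for its soluble form. CAM, the classically activated macrophages (1 library), received 500 ng/ml of lipopolysaccharide (LPS) together with 20 ng/ml of IFNγ. M-CSF macrophages (1 library) had no further stimulus. For peptide-treated CAM the strain is written C57BL/7J in the labels, and this was read as C57BL/6J. No source used here gives the peptide dose or the length of stimulation, and no label says that libraries came from separate cultures, so p-values measure only the spread between these libraries, which may be technical. The data columns number the CAM library 1 and the M-CSF library 2, and no source used here says what these numbers mark, so CAM and M-CSF may come from different replicate sets.

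Library totals were 12842680 and 12119427 estimated counts in peptide libraries 1 and 2, 10333986 in CAM and 12414586 in M-CSF. The 8 macrophage markers checked summed to 5715 and 4853 CPM with the peptide, 7134 CPM in CAM and 22450 CPM in M-CSF (CPM, counts scaled to a common library size), most of it Lyz2 in M-CSF, and none was listed at 0 in every library. Mertk stood at 754.2 and 632.4 CPM with the peptide, 671.9 CPM in CAM and 505.9 CPM in M-CSF, and Csf1r at 29.9, 41.2, 65.4 and 399.4 CPM in the same order. The markers did not share a direction: Adgre1, Itgam, Fcgr1 and Spi1 were, like Mertk, higher in every activated library than in M-CSF, while Lyz2 and Csf1r were lower. Cd68 stood at 39.0 and 32.8 CPM with the peptide, 1.19 CPM in CAM and 13.4 CPM in M-CSF. Cd3e of T cells, Ly6g, S100a9 and Elane of neutrophils, Siglecf of eosinophils and Hba-a1 of red cells were listed at 0 in all 4 libraries. Summed B cell markers reached 1.29 and 2.16 CPM with the peptide, 2.38 CPM in CAM and 112.6 CPM in M-CSF, where Ighm made up 110.3 CPM, and summed platelet markers 13.4, 11.6, 5.42 and 77.1 CPM in the same order. Neutrophil markers summed to 2.93, 5.57, 6.82 and 2.20 CPM, and T and NK markers to 2.495, 3.24, 4.22 and 4.41 CPM. Dendritic cell markers summed to 7.57, 7.82, 25.8 and 5.64 CPM, eosinophil markers to at most 0.166 CPM, fibroblast and endothelial markers to 20.3, 31.4, 24.9 and 20.7 CPM, and red cell markers to at most 0.0860 CPM. The part of other cells in the results was not tested, and in bulk RNA fewer cells of a type and less RNA per cell cannot be told apart. Some genes that most cells use had unusually low values in this table (Rplp0 at 1.89, 1.41, 19.9 and 0.519 CPM in the same order), so low values may be underestimates. Lars2 and Gm15662 together took 10.5% and 7.79% of the counts with the peptide, 14.2% in CAM and 6.40% in M-CSF.

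All 10 genes differed between CAM and M-CSF in edgeR's test, with 1 library in each of these groups. DESeq2's Wald test, run as an alternative, did not call Asl and Srm. Below, "on activation" stands for CAM against M-CSF. Between CAM and M-CSF, 7 members were higher in CAM, 3 were lower, and all 10 passed the threshold, an adjusted p below 0.05 over all tested genes. Of all tested genes 44.4% passed, 21.4% higher and 23.0% lower. The median log2 fold change was 2.61 over the members and -0.07 over all tested genes. With the peptide, 5 members were lower than in CAM, 2 were higher and 3 did not pass, 7 of 10 in all. Of all tested genes 37.7% passed, 20.6% higher and 17.1% lower, and the medians were -0.96 over the members and 0.05 over all tested genes. Against M-CSF macrophages, peptide-treated CAM had 7 members higher, 2 lower and 1 not past the threshold, 9 of 10 in all. Of all tested genes 41.2% passed, 22.1% higher and 19.0% lower, and the medians were 2.33 and -0.08. At least 2-fold apart were 6 members between peptide-treated CAM and CAM, 9 between CAM and M-CSF and 9 between peptide-treated CAM and M-CSF, beside 36.9%, 47.7% and 38.5% of all tested genes. CAM is the control of the peptide comparison and the treated group of the activation comparison, so these counts are not independent of each other. The members were chosen with earlier results of these data known, so their shares beside those of all tested genes are no test of the set. The test was edgeR's quasi-likelihood test with Benjamini-Hochberg adjustment on all 4 libraries, and because CAM and M-CSF had 1 library each, only the peptide libraries informed the spread.

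**Figure D1:**
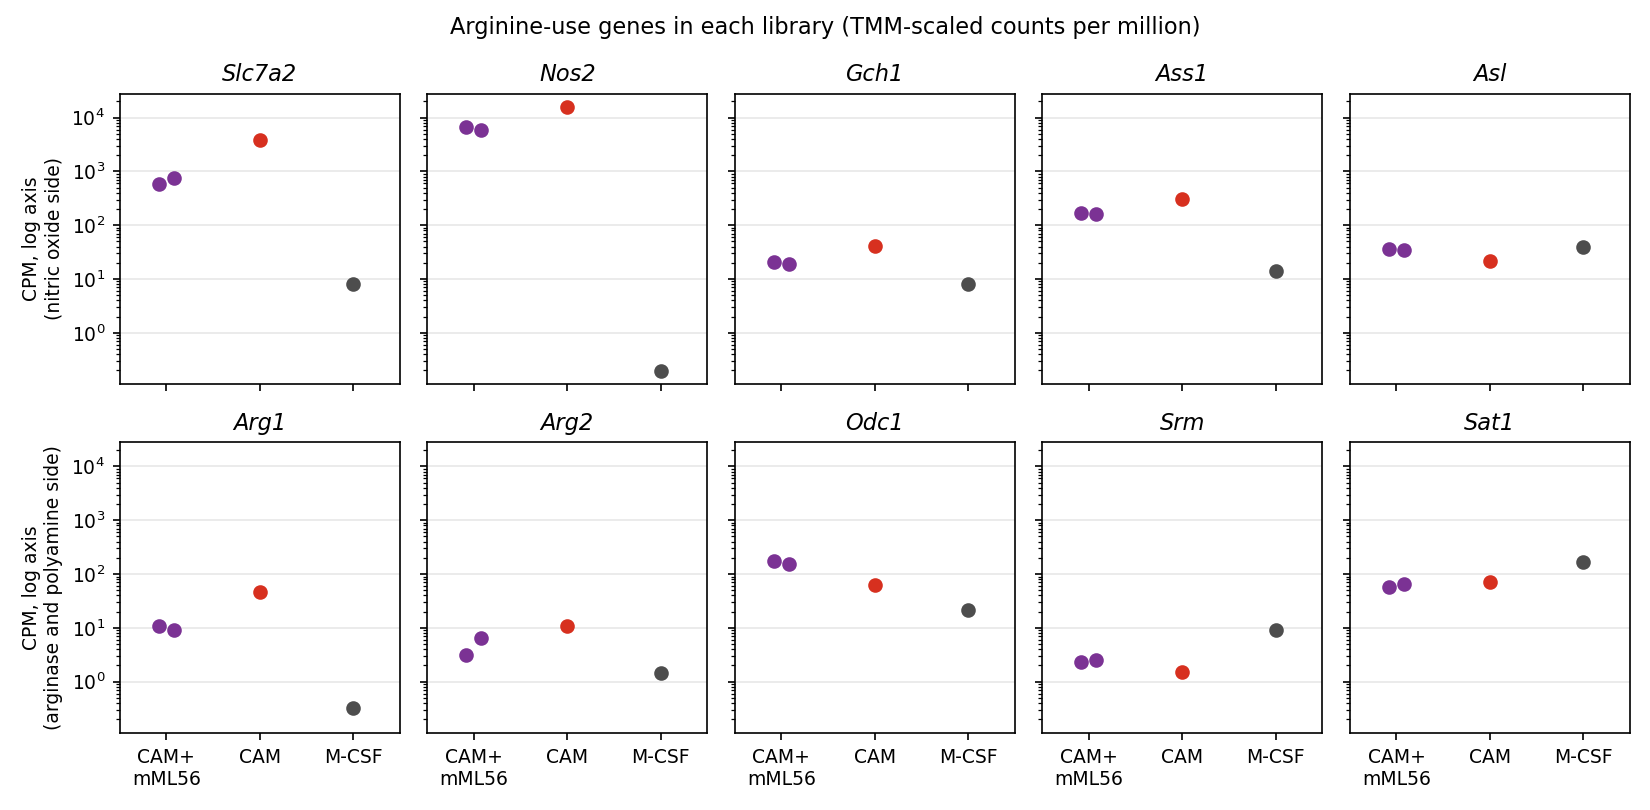
Level of each of the 10 genes in each library as TMM-scaled CPM on a log axis, with the 2 peptide libraries as separate points at the left, then CAM, then M-CSF; the upper row holds the nitric oxide side and the lower row the arginase and polyamine side. Slc7a2, Nos2, Gch1, Ass1, Arg1 and Arg2 are highest in CAM with both peptide libraries between CAM and M-CSF, while Odc1 is highest in the peptide libraries.

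The first step is uptake. Slc7a2 encodes the cationic amino acid transporter CAT2, which carries arginine into activated macrophages (ENSMUSG00000031596, mm10 chromosome 8, 40862396 to 40922308). It stood at 584.3 and 741.2 CPM in peptide libraries 1 and 2, 3781 CPM in CAM and 7.97 CPM in M-CSF. CAM was far above both peptide libraries, and these were far above M-CSF. Slc7a2 had the largest fall with the peptide among the members, a log2 fold change of -2.51 (SE 0.197, adjusted p = 2.66e-06), or 5.69-fold lower than in CAM. From M-CSF macrophages CAM differed by 8.89 (SE 0.343, adjusted p = 9.49e-10) and peptide-treated CAM by 6.38 (SE 0.305, adjusted p = 3.06e-09).

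Nos2 encodes inducible nitric oxide synthase (ENSMUSG00000020826, chromosome 11, 78920787 to 78960254). It stood at 6728 and 5884 CPM with the peptide, 15950 CPM in CAM and 0.1945 CPM in M-CSF, where the value rests on 3 counts. The peptide libraries lay close together, both below CAM and both orders of magnitude above M-CSF. The ratio of CAM to M-CSF was 82000, with a 95% counting interval of 28060 to 397600 (exact binomial, counting error only), and that of peptide-treated CAM to M-CSF was 32390 (11080 to 157100). With the peptide Nos2 was 2.53-fold below CAM, or -1.34 on the log2 scale (SE 0.238, adjusted p = 0.000877). Ranked per length of transcript (CPM per kilobase of merged exons), Nos2 was at place 22 and 24 of 14013 genes in the peptide libraries, at place 6 in CAM and at place 13592 in M-CSF. It took 0.609% and 0.584% of all counts with the peptide, 1.43% in CAM and 2.42e-05% in M-CSF.

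Gch1 encodes GTP cyclohydrolase 1, the first and rate-limiting enzyme of tetrahydrobiopterin synthesis (ENSMUSG00000037580, chromosome 14, 47153895 to 47189413). Its levels were 20.6 and 19.3 CPM with the peptide, 41.2 CPM in CAM and 8.23 CPM in M-CSF. The 3 groups kept the order seen for Nos2, over a much narrower range. The log2 fold change with the peptide was -1.05 (SE 0.222, adjusted p = 0.00278), a call that DESeq2's Wald test did not make (adjusted p = 0.0794). On activation it was 2.32 (SE 0.279, adjusted p = 1.87e-05).

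The citrulline cycle did not move as a unit. Ass1 encodes argininosuccinate synthetase, which joins citrulline to aspartate (ENSMUSG00000076441, chromosome 2, 31470207 to 31520672). It stood at 170.0 and 162.7 CPM with the peptide, 303.9 CPM in CAM and 13.9 CPM in M-CSF. It rose on activation by 4.45 on the log2 scale (SE 0.220, adjusted p = 5.50e-09) and was lower with the peptide than in CAM (-0.87, SE 0.157, adjusted p = 0.000975). Asl encodes argininosuccinate lyase, which releases arginine and fumarate in the next step (ENSMUSG00000025533, chromosome 5, 130011258 to 130029247). It stood at 36.7 and 35.1 CPM with the peptide, 21.7 CPM in CAM and 39.4 CPM in M-CSF. Asl was lowest in CAM, with both peptide libraries near the M-CSF level. Its log2 fold change was -0.86 for CAM against M-CSF (SE 0.239, adjusted p = 0.0105) and 0.73 for peptide-treated CAM against CAM (SE 0.214, adjusted p = 0.0176). DESeq2's Wald test made neither Asl call (adjusted p = 0.154 and 0.166). Peptide-treated CAM and M-CSF macrophages differed by -0.13 in Asl (95% interval -0.56 to 0.30, adjusted p = 0.632).

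The ratio of Ass1 to Asl within a library does not depend on how libraries are scaled. Per kilobase of merged exons, Ass1 was 9.26 and 9.28 times Asl in peptide libraries 1 and 2, 28.1 times Asl in CAM and 0.706 times Asl in M-CSF. The 95% Wilson intervals were 8.34 to 10.3 and 8.35 to 10.3, 24.3 to 32.4, and 0.604 to 0.824, and cover counting error only. The intervals did not overlap between groups, and those of the peptide pair nearly coincided. CAM and M-CSF had 1 library each, and how many other gene pairs would separate in this way was not tested.

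RefSeq promoter windows (build GRCm38.p6) were at hand for 4 of the 10 members: Ass1, Gch1, Odc1 and Sat1. The 250 bases before the RefSeq start are printed for 3 of them, because Ass1 and Gch1 shared the order CAM, peptide, M-CSF while Odc1 did not. Capitals mark matches on either strand to a kB-like pattern (GGG and CC with any 5 bases between), a GAS-like pattern (TTCNNNGAA), an IRF-like pattern (GAAA repeated after any 2 bases), the E-box CACGTG, the hypoxia-type core ACGTG that lies within it, and TATAAA. Coordinates are chr2:31470020-31470269 on the plus strand for Ass1, chr14:47189414-47189663 on the minus strand for Gch1 and chr12:17544623-17544872 on the plus strand for Odc1, each read 5′ to 3′.
Ass1: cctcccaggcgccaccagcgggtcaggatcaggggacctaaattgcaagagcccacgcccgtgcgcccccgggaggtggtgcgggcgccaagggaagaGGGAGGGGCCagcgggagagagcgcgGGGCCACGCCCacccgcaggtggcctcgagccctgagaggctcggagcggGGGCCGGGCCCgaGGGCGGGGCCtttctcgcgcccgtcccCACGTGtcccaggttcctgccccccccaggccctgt
Gch1: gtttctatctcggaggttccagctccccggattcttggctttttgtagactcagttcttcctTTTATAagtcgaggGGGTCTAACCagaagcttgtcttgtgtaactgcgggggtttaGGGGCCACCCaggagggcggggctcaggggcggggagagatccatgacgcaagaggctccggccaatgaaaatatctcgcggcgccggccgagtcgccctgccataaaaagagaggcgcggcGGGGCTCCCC
Odc1: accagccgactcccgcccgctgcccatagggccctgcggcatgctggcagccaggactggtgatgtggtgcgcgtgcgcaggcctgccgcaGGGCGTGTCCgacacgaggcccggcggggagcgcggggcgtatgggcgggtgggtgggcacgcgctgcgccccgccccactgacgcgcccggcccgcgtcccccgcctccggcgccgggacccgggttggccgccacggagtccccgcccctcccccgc

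The Ass1 window held the E-box CACGTG, at 36 to 31 bases before the RefSeq start, which 6.02% of 32851 windows of this length also held. The Ass1 gene coordinates of the count table begin at 31470207, before the window ends at 31470269. The end of this window, with the E-box, thus lies within the gene by those coordinates. The kB-like pattern was found in Ass1, Gch1 and Odc1, as in 45.8% of all windows, so it sets them little apart. Gch1 held TATAAA on the strand opposite to the printed one at 188 to 183 bases before the start, as 12.4% of windows did on either strand. The GAS-like and IRF-like patterns, found in 7.02% and 2.98% of all windows, had no match in the 4 member windows, and Sat1 matched none of the patterns. A match is a description of letters and shows no binding.

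On the arginase side, Arg1 encodes cytosolic arginase (ENSMUSG00000019987, chromosome 10, 24915208 to 24927470). It stood at 11.01 and 9.15 CPM with the peptide, 46.7 CPM in CAM and 0.324 CPM in M-CSF. It moved with Nos2 and not against it: CAM was above both peptide libraries, and these were above M-CSF, where 5 counts were found, so that CAM was 144-fold above M-CSF with a 95% counting interval of 61.2 to 445.8. The log2 fold change was 7.12 for CAM against M-CSF (SE 0.446, adjusted p = 4.75e-08) and -2.21 for peptide-treated CAM against CAM (SE 0.245, adjusted p = 3.18e-05). Arg1 was thus 4.64-fold lower with the peptide, and peptide-treated CAM remained above M-CSF by 4.91 on the log2 scale (SE 0.438, adjusted p = 1.06e-06).

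Arg2 encodes the mitochondrial arginase (ENSMUSG00000021125, chromosome 12, 79130777 to 79156301). It stood at 3.10 and 6.40 CPM with the peptide, 10.7 CPM in CAM and 1.43 CPM in M-CSF. The peptide libraries lay 2.07-fold apart, the widest gap among the members; 11.3% of tested genes were at least 2-fold apart between these libraries. Arg2 rose on activation by 2.90 on the log2 scale (SE 0.578, adjusted p = 0.00120). The difference between peptide-treated CAM and CAM was -1.17 (95% interval -2.12 to -0.22) with adjusted p = 0.0517, just short of the threshold, while with DESeq2's size factors in edgeR it passed (adjusted p = 0.0134). Without peptide library 2 it was -1.75 and without peptide library 1 it was -0.74. Against M-CSF macrophages Arg2 was higher with the peptide by 1.73 (SE 0.528, adjusted p = 0.0184), a call lost with library size as the only scaling (adjusted p = 0.0819) and in DESeq2 (adjusted p = 0.162). Arg2 shares 285 bases with Vti1b on the opposite strand, and the strand setting of the counting is not given in the sources used here, so reads of this stretch may not be told apart. Vti1b stood at 23.4 and 20.2 CPM with the peptide, 6.50 CPM in CAM and 8.04 CPM in M-CSF. Other overlaps were with genes not in the count table, and their part in the counts was not tested. On the opposite strand these were Gm48780 with Arg2 (997 bases), Gm26584 with Slc7a2 (3252) and Gm49134 with Gch1 (258). On the same strand they were Gm18811 with Gch1 (664) and Gm22748 with Odc1 (136).

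Transcript counts of the rival enzymes were set against each other within each library. Per kilobase of merged exons, Nos2 was 308.5 and 324.9 times Arg1 in peptide libraries 1 and 2 (95% Wilson intervals 259.5 to 366.8 and 269.5 to 391.6). The ratio was 172.5 in CAM (157.0 to 189.6) and 0.303 in M-CSF (0.0801 to 1.15), the last from 3 and 5 counts. Both peptide libraries were therefore above CAM by more than counting error, since Arg1 was lower by a larger factor than Nos2. CAM was 1 library, and these intervals leave out the spread between libraries. In edgeR's fit of peptide-treated CAM against CAM, the 95% intervals of the log2 fold changes overlapped. They were -2.74 to -1.68 for Arg1 and -1.85 to -0.82 for Nos2. Nos2 made up 99.84% of the counts of the pair in each peptide library, 99.71% in CAM and 37.5% in M-CSF. With the longest transcript as the length, the ratios came to 215.3 and 226.7 with the peptide, 120.4 in CAM and 0.211 in M-CSF, in the same order. Arg1 over Arg2 was 2.28 and 0.916 with the peptide, 2.79 in CAM and 0.146 in M-CSF. In peptide library 2 its 95% Wilson interval of 0.685 to 1.22 included 1, and the ratio was 1.38 with the longest transcript as the length, so these data do not order Arg1 and Arg2 in that library.

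**Figure D2:**
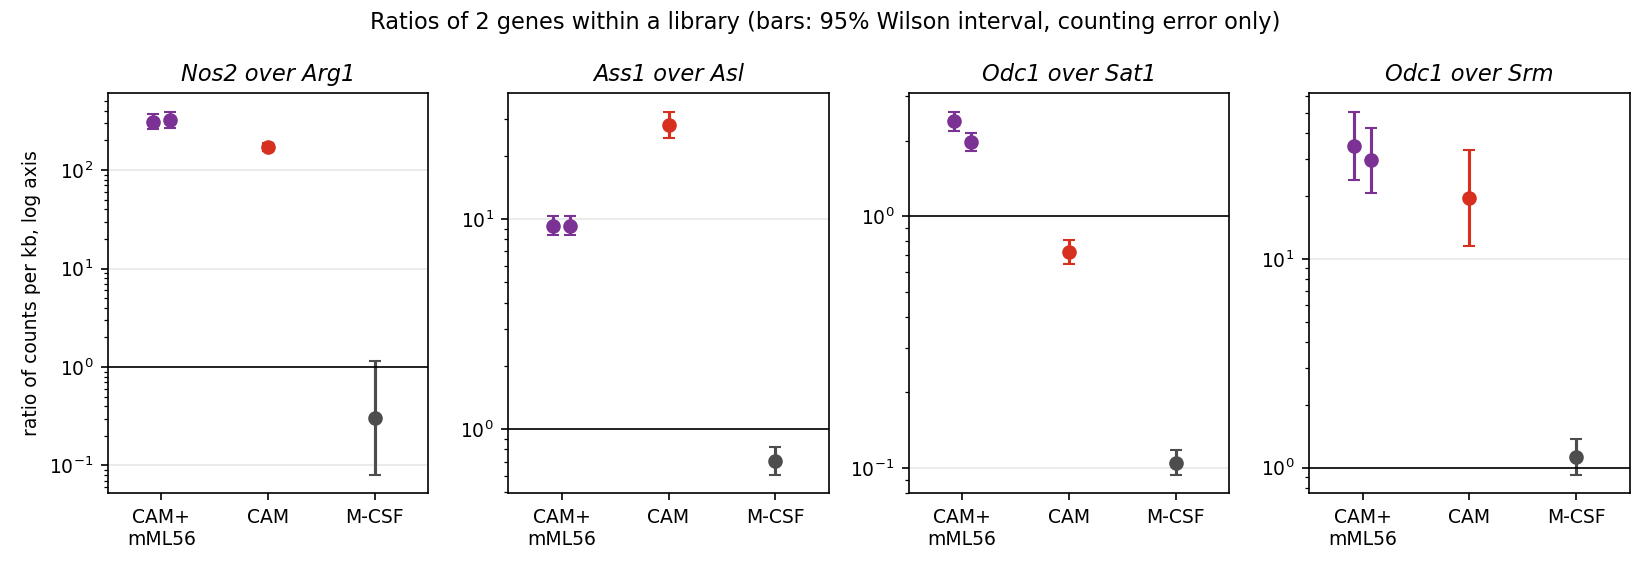
Ratios of the counts per kilobase of merged exons of 2 genes within each library, on log axes, with 95% Wilson intervals that cover counting error only and a line at 1; peptide libraries stand left, then CAM, then M-CSF. Nos2 over Arg1 and Odc1 over Sat1 are highest in the peptide libraries, and Ass1 over Asl is highest in CAM at 28.1.

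Ornithine leads on to the polyamines. Odc1 encodes ornithine decarboxylase, the first enzyme of polyamine synthesis (ENSMUSG00000011179, chromosome 12, 17544873 to 17551502). It stood at 171.7 and 157.1 CPM with the peptide, 63.1 CPM in CAM and 21.7 CPM in M-CSF. Odc1 was the one member that was higher in CAM than in M-CSF and higher again with the peptide. Its log2 fold change was 1.54 on activation (SE 0.204, adjusted p = 4.32e-05), 1.38 for peptide-treated CAM against CAM (SE 0.177, adjusted p = 9.04e-05) and 2.92 for peptide-treated CAM against M-CSF (SE 0.195, adjusted p = 6.49e-08). Both peptide libraries were above CAM, 2.60-fold as a group.

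Srm encodes spermidine synthase, which makes spermidine from putrescine (ENSMUSG00000006442, chromosome 4, 148591503 to 148594993). It stood at 2.32 and 2.49 CPM with the peptide, 1.52 CPM in CAM and 9.08 CPM in M-CSF, from 27, 30, 14 and 140 counts. M-CSF was above all 3 activated libraries. The log2 fold change was -2.57 for CAM against M-CSF (SE 0.550, adjusted p = 0.00199) and -1.91 for peptide-treated CAM against M-CSF (SE 0.411, adjusted p = 0.00215), and DESeq2's Wald test made neither call (adjusted p = 0.0924 and 0.165). Between peptide-treated CAM and CAM the difference of 0.66 did not pass (95% interval -0.46 to 1.79, adjusted p = 0.337).

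Sat1 encodes the acetyltransferase that marks spermidine and spermine for export and breakdown (ENSMUSG00000025283, chromosome X, 155213132 to 155216449). It stood at 58.6 and 64.7 CPM with the peptide, 71.2 CPM in CAM and 167.9 CPM in M-CSF. The activated libraries lay close together and below M-CSF. Sat1 fell on activation by 1.24 on the log2 scale (SE 0.194, adjusted p = 0.000185), and peptide-treated CAM differed from M-CSF by -1.45 (SE 0.159, adjusted p = 8.01e-06). Peptide-treated CAM and CAM differed by -0.21 (95% interval -0.57 to 0.16, adjusted p = 0.356).

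Ratios within libraries set Odc1 against the later enzymes. Per kilobase of merged exons, Odc1 was 2.39 and 1.98 times Sat1 with the peptide, 0.723 times in CAM and 0.105 times in M-CSF. No 95% Wilson interval of one group overlapped that of another, but these cover counting error only. How many other gene pairs would separate in this way was not tested. Odc1 over Srm was 34.7 and 29.6 with the peptide, 19.6 in CAM and 1.12 in M-CSF; here the intervals of the peptide libraries (23.8 to 50.6 and 20.7 to 42.3) overlapped that of CAM (11.6 to 33.0). Nos2 over Odc1 was 30.2 and 28.9 with the peptide, 194.9 in CAM and 0.00691 in M-CSF.

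**Figure D3:**
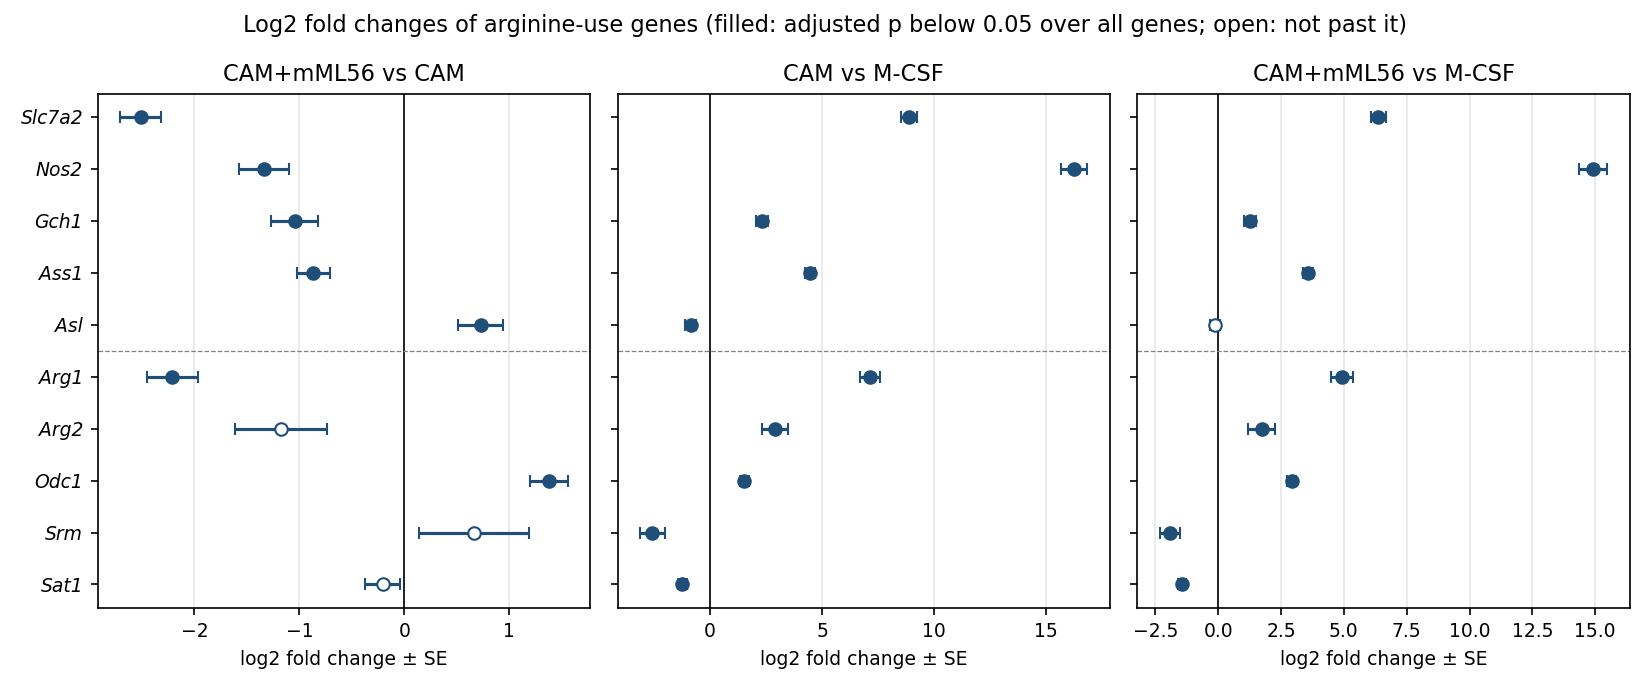
Log2 fold change of each gene with its standard error in 3 comparisons (peptide-treated CAM against CAM, CAM against M-CSF, peptide-treated CAM against M-CSF), each with its own scale; filled points passed an adjusted p of 0.05 over all genes. With the peptide, Slc7a2 (-2.51) and Arg1 (-2.21) lie lowest and Odc1 (1.38) highest.

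Levels compared between genes per kilobase of merged exons gave a different order in each group. The places of near neighbours depend on the length used. Merged exons span 4831 bases in Asl and 6251 in Gch1, against 2413 and 3508 for their longest transcripts. The full order with the longest transcript as the length was not tested. In peptide-treated CAM, Nos2 led at 1429 ± 135 (SD, n = 2), followed by Slc7a2 at 72.6 ± 12.1 and Ass1 at 68.9 ± 2.13, which did not differ beyond their spread. Odc1 at 48.3 ± 3.04, Sat1 at 22.2 ± 1.56 and Asl at 7.43 ± 0.241 CPM per kilobase came next, each apart from its neighbour. Arg1 followed at 4.52 ± 0.592, Arg2 at 3.33 ± 1.64 and Gch1 at 3.19 ± 0.144, with the spread of Arg2 reaching over both neighbours, and Srm was last at 1.51 ± 0.0758. In CAM the order was Nos2 at 3614, Slc7a2 at 413.9, Ass1 at 125.9, Sat1 at 25.7, Arg1 at 21.0, Odc1 at 18.5, Arg2 at 7.51, Gch1 at 6.58, Asl at 4.48 and Srm at 0.948 CPM per kilobase, with no replicate. In M-CSF macrophages Sat1 led at 60.5, followed by Asl at 8.15, Odc1 at 6.38, Ass1 at 5.75, Srm at 5.68, Gch1 at 1.32, Arg2 at 0.999, Slc7a2 at 0.873, Arg1 at 0.146 and Nos2 at 0.0441. Nos2 was the highest of the 10 in every activated library, and in M-CSF macrophages its 3 counts and the 5 counts of Arg1 were not separated beyond counting error at the low end of the order.

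A wider set of 70 pathway genes gave little common direction in edgeR's calls. Of the 58 that passed the filter, 12 rose and 12 fell with the peptide against CAM (24 of 58, background 37.7%), with a median log2 fold change of -0.08. Between CAM and M-CSF 13 rose and 16 fell (29 of 58, background 44.4%), with a median of -0.33, and with library size as the only scaling 9 rose and 20 fell. Between peptide-treated CAM and M-CSF 11 rose and 17 fell (28 of 58, background 41.2%), with a median of -0.28. These shares were near those of all tested genes. The balance of directions depended on the test: DESeq2's Wald test, run without the filter, called more pathway genes higher than lower in every comparison. Of the 58, Slc25a2, Paox and Sat2 were listed at 0 in CAM, and setting them at the bound of a floor of 3 counts left the edgeR medians as they were. For each list below, the share of tested genes called stands in brackets. It is to be read beside 37.7% of all tested genes with the peptide and 44.4% on activation.

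**Figure D4:**
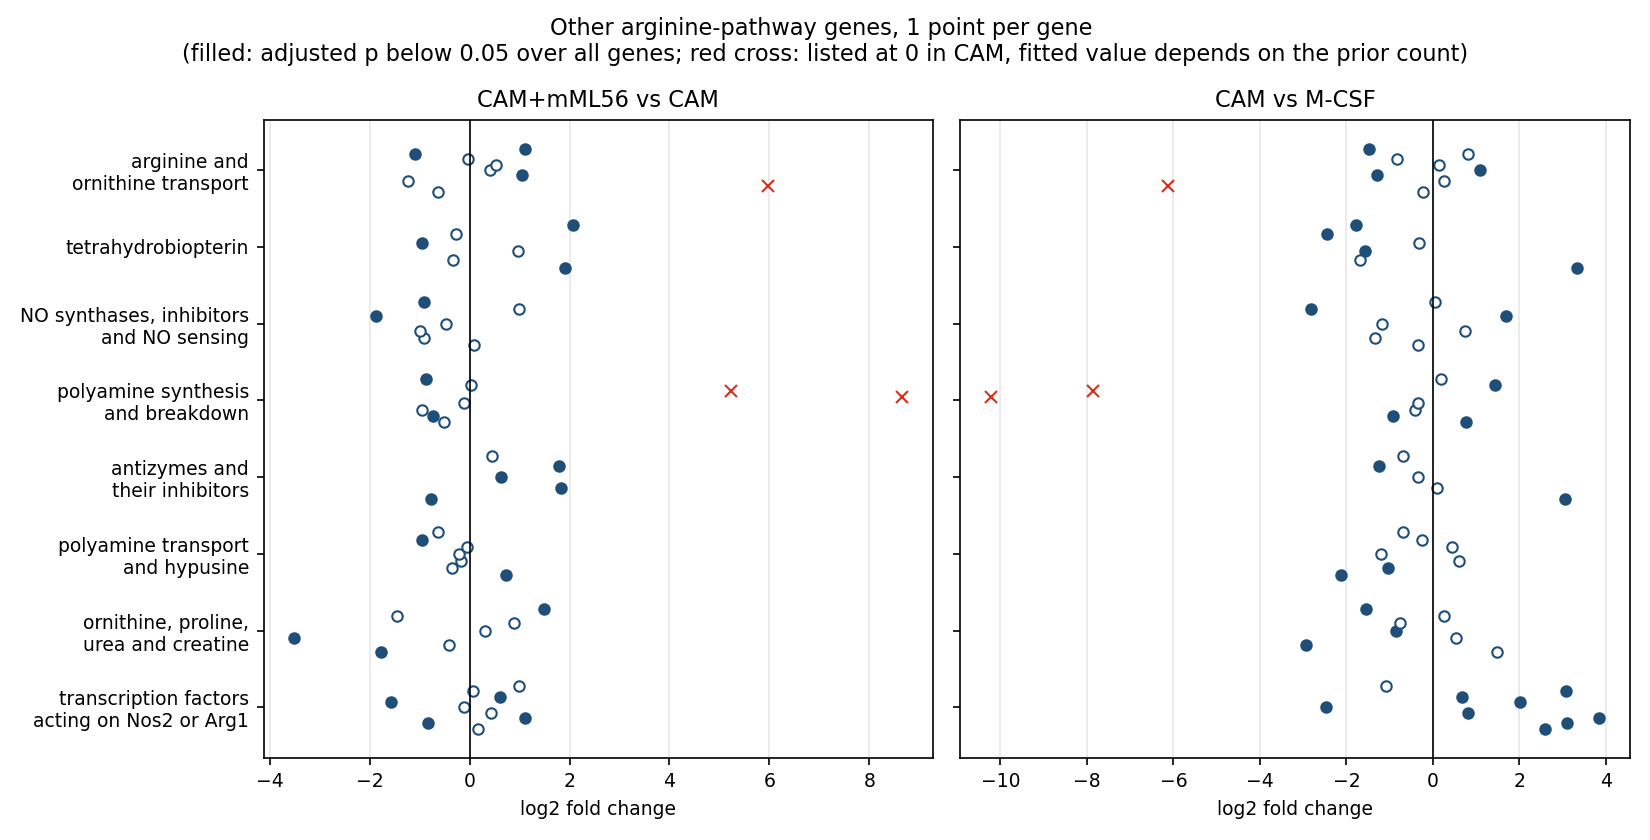
Log2 fold change of each tested pathway gene outside the 10 members, by list, for peptide-treated CAM against CAM and for CAM against M-CSF; filled points passed an adjusted p of 0.05 over all genes, and red crosses are genes listed at 0 in CAM, whose fitted values depend on the prior count. Most lists hold points on both sides of 0, and the transcription factors lie mostly above 0 on activation.

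Among 9 arginine and ornithine transporters and their partners, 2 rose and 1 fell with the peptide (33.3%). On activation, 1 rose and 2 fell (33.3%). Slc7a7, an arginine exporter, stood at 39.3 and 34.8 CPM with the peptide, 17.1 CPM in CAM and 47.3 CPM in M-CSF, and Slc38a9, a lysosomal arginine sensor, at 55.7 and 60.4 CPM with the peptide, 27.9 CPM in CAM and 68.3 CPM in M-CSF. Both fell on activation (log2 fold changes -1.47 and -1.29) and rose with the peptide (1.11 and 1.05), the pattern of Asl. Slc3a2, the heavy chain that Slc7a7 needs, rose on activation, at 665.3 and 614.0 CPM with the peptide, 478.6 CPM in CAM and 222.8 CPM in M-CSF. Slc7a6 fell with the peptide, at 4.90 and 4.82 CPM against 10.4 CPM in CAM (log2 fold change -1.10). The other arginine carriers Slc7a1 and Slc7a3 had at most 3.16 CPM in all 4 libraries.

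Of 6 tested genes of tetrahydrobiopterin synthesis and recycling, 2 rose and 1 fell with the peptide, and 1 rose and 3 fell on activation. Spr, the last enzyme of synthesis, stood at 13.9 and 11.8 CPM with the peptide, 3.03 CPM in CAM and 10.4 CPM in M-CSF, so it fell on activation (-1.78) and rose with the peptide (2.08). Pts, the middle enzyme, fell with the peptide to 6.88 and 7.40 CPM, against 13.9 CPM in CAM. Qdpr, which recycles the cofactor, fell on activation to 2.92 CPM in CAM, against 16.1 CPM in M-CSF (-2.45). Gchfr, the feedback regulator of GTP cyclohydrolase 1, had at most 0.0860 CPM.

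Of 7 tested genes of other nitric oxide synthases, their partners and nitric oxide sensing, none rose and 2 fell with the peptide (28.6%). On activation, 1 rose and 1 fell (28.6%). The neuronal enzyme Nos1 stood at 1.29 and 1.33 CPM with the peptide, 2.60 CPM in CAM and 1.56 CPM in M-CSF, and the endothelial enzyme Nos3 did not pass the filter. Nosip, which binds the endothelial enzyme, stood at 2.58 and 3.83 CPM with the peptide, 11.7 CPM in CAM and 3.63 CPM in M-CSF, a rise of 1.69 on activation and a log2 fold change of -1.86 with the peptide. Prmt1, an arginine methyltransferase, fell with the peptide to 10.4 and 10.7 CPM, against 19.8 CPM in CAM. Nostrin, a trafficking partner of the endothelial enzyme, fell on activation to 1.95 CPM in CAM, against 13.7 CPM in M-CSF.

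Polyamine genes beyond the members gave mixed calls. Of 8 tested enzymes, 1 rose and 2 fell with the peptide (37.5%), and 2 rose and 3 fell on activation (62.5%). Smox, which oxidises spermine back to spermidine, stood at 170.7 and 219.3 CPM with the peptide, 192.4 CPM in CAM and 71.3 CPM in M-CSF (1.43 on activation). Sms, spermine synthase, fell with the peptide to 15.2 and 14.6 CPM, against 27.4 CPM in CAM (-0.88). Mat2a, which makes the methyl donor used in the pathway, stood at 18.6 and 18.8 CPM with the peptide, 31.1 CPM in CAM and 59.3 CPM in M-CSF and fell in both comparisons. Amd1, which makes the aminopropyl donor, rose on activation (0.76, adjusted p = 0.0419). Paox, an oxidase of acetylated polyamines, was listed at 0 in CAM, with 3.79 and 4.57 CPM with the peptide and 12.3 CPM in M-CSF; it is the 1 enzyme counted as risen with the peptide.

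The antizymes, which send ornithine decarboxylase to the proteasome, and the antizyme inhibitors, which protect it, form a short list. Of 5 tested genes, 3 rose and 1 fell with the peptide (80.0%), and 1 rose and 1 fell on activation (40.0%). Azin1, an antizyme inhibitor, stood at 217.7 and 171.0 CPM with the peptide, 330.4 CPM in CAM and 39.6 CPM in M-CSF, a rise of 3.06 on activation and a log2 fold change of -0.77 with the peptide. Azin2, the other inhibitor, stood at 20.6 and 19.8 CPM with the peptide, 5.63 CPM in CAM and 5.25 CPM in M-CSF, a rise of 1.84 with the peptide. Oaz2, an antizyme, stood at 37.3 and 34.3 CPM with the peptide, 10.3 CPM in CAM and 24.3 CPM in M-CSF, and fell on activation (-1.24) and rose with the peptide (1.80). Oaz1, another antizyme, rose with the peptide by 0.63 on the log2 scale (adjusted p = 0.0145), at 207.7 and 176.0 CPM with the peptide, 124.3 CPM in CAM and 156.5 CPM in M-CSF.

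Of 7 tested genes of polyamine transport and of hypusine, the spermidine-derived residue of eIF5A, 1 rose and 1 fell with the peptide (28.6%). Activation calls were none higher and 2 lower (28.6%). Atp13a2, a lysosomal polyamine exporter, stood at 101.0 and 86.2 CPM with the peptide, 56.6 CPM in CAM and 248.0 CPM in M-CSF, a fall of 2.13 on activation and a rise of 0.72 with the peptide on the log2 scale. Atp13a3, a related transporter, fell on activation to 28.4 CPM in CAM, against 57.9 CPM in M-CSF. Eif5a2 fell with the peptide to 7.57 and 6.74 CPM, against 13.8 CPM in CAM. Of 7 tested genes of ornithine, proline, urea and creatine, 1 rose and 2 fell with the peptide (42.9%). On activation, none rose and 3 fell (42.9%). Gatm, which draws arginine into creatine synthesis, stood at 6.54 and 5.65 CPM with the peptide, 69.6 CPM in CAM and 48.2 CPM in M-CSF, a log2 fold change of -3.51 with the peptide (SE 0.213). Gamt, the second creatine enzyme, fell on activation to 1.52 CPM in CAM, against 11.7 CPM in M-CSF. The urea cycle genes Otc, Cps1 and Nags were listed at 0 in all 4 libraries.

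Of 9 transcription factors known to act on Nos2 or Arg1, 2 rose and 2 fell with the peptide (44.4%). On activation, 7 rose and 1, Myc, fell (88.9%). The list was chosen with earlier results of these data known, so these shares are no test of it. The 2 that rose with the peptide were Irf1, an interferon-induced activator of Nos2, and Rela, an NF-kB subunit. Irf1 stood at 2117 and 1896 CPM with the peptide, 925.5 CPM in CAM and 64.1 CPM in M-CSF, so it was higher with the peptide (1.12) while Nos2 was lower. Rela stood at 263.4 and 260.0 CPM with the peptide, 171.3 CPM in CAM and 106.4 CPM in M-CSF (log2 fold change 0.61 against CAM). Nfkb1 stood at 157.5 and 132.1 CPM with the peptide, 430.9 CPM in CAM and 105.8 CPM in M-CSF (log2 fold change -1.57 against CAM), and Hif1a, the hypoxia factor, at 926.9 and 795.3 CPM with the peptide, 1524 CPM in CAM and 177.1 CPM in M-CSF (log2 fold change -0.82 against CAM).

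Genes with the profile most like Nos2 over the 4 libraries were sought among 7042 genes with a mean of at least 10 CPM, by the Euclidean distance between log2 CPM values centred on each gene's mean. Among the 5 nearest to Nos2 were Ptgs2 (1.73), Acod1 (3.02), Upp1 (3.30) and Serpina3f (3.78). Ptgs2, the inducible cyclooxygenase, stood at 5022 and 4217 CPM with the peptide, 17770 CPM in CAM and 0.972 CPM in M-CSF, and Acod1, which makes itaconate, at 2965 and 3078 CPM with the peptide, 9292 CPM in CAM and 1.88 CPM in M-CSF. Nos2 and Arg1 had 3 and 5 counts in M-CSF, so all distances to them depend on the prior count of 2. Upp1 and Serpina3f were listed at 0 in M-CSF. Upp1 stood at 341.2 and 352.4 CPM with the peptide and 320.6 CPM in CAM, so it did not share the lower level of Nos2 with the peptide. The 5 nearest to Arg1 were Ak4 (0.338), Adm (0.386), Ch25h (0.543), Ccr7 (0.626) and Olfr56 (0.665). Ak4, a mitochondrial adenylate kinase, stood at 70.5 and 61.1 CPM with the peptide, 231.2 CPM in CAM and 2.46 CPM in M-CSF. With 4 libraries, these distances only describe a likeness of levels, and a near gene need not share the order of the groups.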

How the data were processed

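Messenger RNA was sequenced with a directional mRNA kit, per the labels' protocols. The authors deposited 1 table of estimated counts per gene; kallisto, StringTie and the build mm10 are named in the submitters' processing notes, and the strand setting is not given in the sources used here. The peptide columns were matched to their group by name. The estimates need not be whole and were rounded to whole counts.

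Counts were analysed with edgeR 4.0.16 (R 4.3.3): filterByExpr, TMM scaling, and the quasi-likelihood test on 4 libraries in 3 groups, with 1 residual degree of freedom, 11.8 prior degrees of freedom, a biological coefficient of variation of 0.161 and a prior count of 0.125 for fold changes. P-values were adjusted by Benjamini-Hochberg over all 14104 tested genes, with a threshold of 0.05. Confidence intervals of counts and shares are exact binomial or Wilson at 95% and cover counting error only. Exon lengths came from GENCODE M21. The script was tested on simulated counts.

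The members and gene lists were chosen with earlier results of these data known. All 10 members are named. From each pathway list, up to 2 genes a direction and comparison were to be named, the largest changes among called genes whose higher group reached 10 CPM. Slc7a1, Slc7a3, Gchfr, Nos1, Nos3, Slc25a2, Sat2, Otc, Cps1, Nags, Oaz1 and Myc were added after their values were seen. Some genes that these rules name are not reported here. Alternatives were DESeq2 1.42.0 with its Wald test and its size factors (RLE) in edgeR, library size as the only scaling, no filter, a prior count of 2, another transcript length and leaving out each peptide library.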

Additional observations from a re-analysis of the deposited data

How the results depend on the processing

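No paired analysis was possible because the groups compared share fewer than 2 replicate numbers. No member changed direction under any alternative run. With DESeq2's Wald test, calls numbered 2389 in peptide-treated CAM against CAM, 3473 in CAM against M-CSF and 3283 in peptide-treated CAM against M-CSF. These were of 19418 genes, run without the filter. With edgeR calls numbered 5320, 6269 and 5804 of 14104 genes. Pathway genes called fell to 15, 19 and 17 of 64 in the same order, against 24, 29 and 28 of 58. In DESeq2 the share of pathway genes called was above that of all genes in each comparison. Members called fell to 5, 8 and 7 of 10, against 7, 10 and 9. DESeq2 lost 6 of the 26 member calls of edgeR, DESeq2's size factors in edgeR added that of Arg2 with the peptide, and library size alone lost 1 (Arg2 against M-CSF) and added 1 (Asl against M-CSF, -0.52, adjusted p = 0.0462); the cause was not tested. With library size alone, 61.2% of calls were higher with the peptide than in CAM, 28.6% higher in CAM than in M-CSF and 33.2% higher with the peptide than in M-CSF, against 54.6%, 48.2% and 53.8% with TMM, and the medians of all genes moved to 0.13, -0.55 and -0.46, against 0.05, -0.07 and -0.08. The Nos2 to Arg1 ratio with the longest transcript as length was 215.3 and 226.7 with the peptide and 120.4 in CAM. A prior count of 2 gave log2 fold changes on activation of 15.43 for Nos2 and 6.58 for Arg1. Without the filter on low counts, 9039, 10253 and 9125 genes were at least 2-fold apart in the same order of comparisons, against 5210, 6732 and 5430. Leaving out a peptide library left no residual degrees of freedom, so it gave values with no test. Member values resting on under 30 counts (Nos2, Arg1 and Arg2 in M-CSF, Srm in peptide library 1 and in CAM) are limited by depth.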
